A study of Mus musculus with 4 samples.

Results

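Laminins, nidogens and integrins are the genes treated here, in single cells of mouse popliteal vessels. The members were taken by gene symbol: every gene named Lama, Lamb or Lamc with a number, both nidogens, and every gene named Itga or Itgb with a number or letter code. The rule found 39 of the 32286 genes in the count matrices: 18 integrin α subunits, 8 integrin β subunits, 5 laminin α chains, 3 laminin β chains, 3 laminin γ chains and 2 nidogens. The rule itself uses no measured value. Of the 39, 36 had at least 10 unique molecular identifiers (UMIs, one per captured RNA molecule) over all kept cells. Lama1 had 0 UMIs, and Itgad and Itgb6 had 1 each, so they are named without a value by class.

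The libraries were 3, made with a 10x Genomics 3′ kit. All mice were adults of the same cross: WT1GFPCre (STOCK Wt1tm1(EGFP/cre)Wtp/J), in which Cre is expressed from the Wt1 locus, with the Ai9-tdT reporter, Gt(ROSA)26Sortm9(CAG-tdTomato)Hze/J on a B6.Cg background. All had footpad injections of Evans blue dye. The PLV group held popliteal lymphatic vessels in 2 libraries, each from a pool of 2 mice and digested for 30 min with collagenase I, Dispase II, DNAse and Liberase. The mixed library held popliteal lymphatic and blood vessels of 1 pool of 2 mice, digested for 60 min with collagenase I and Dispase II alone. Its vessels carried separate hashtag antibodies, and the hashtag counts were not used here to split them. Vessel, enzymes, digestion time, run and mice therefore differ together between the groups. After filtering there were 1909 and 516 PLV cells and 994 mixed cells, with medians of 3372, 4886.5 and 6162 UMIs a cell, and no 2 libraries shared a cell barcode (0 shared in each pair). Clusters were named from markers: muscle-like, pericyte-like, blood endothelial-like, lymphatic endothelial-like, fibroblast-like and Schwann-like cells were found in each library, and immune-like clusters were pooled. Unnamed clusters (111, 69 and 56 cells) and 15 perineurial-like cells of PLV replicate 1 were left out of the comparisons and rankings of classes. Levels are given as CPM, the UMIs of a gene over the UMIs of all genes in a class of 1 library scaled to counts per 1000000, always in the order first PLV replicate, second PLV replicate, mixed library. The 10 muscle markers summed to 35439, 35982 and 43033 CPM in muscle-like cells and to 7766, 8813 and 13394 CPM in pericyte-like cells. The 9 pericyte markers summed to 12431, 10009 and 6024 CPM in pericyte-like and 2261, 1858 and 1127 CPM in muscle-like cells. There were 38, 28 and 57 pericyte-like and 234, 53 and 39 Schwann-like cells, the 2 tested classes with the fewest UMIs.

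Basement membranes are thin sheets of matrix that wrap muscle cells, pericytes and Schwann cells and underlie endothelium. Laminins, trimers of an α, a β and a γ chain, build the first network, and nidogens link it to collagen IV. Integrins, αβ pairs in the cell membrane, bind these proteins and other matrix or cell-surface ligands, and the β1 subunit pairs with most α subunits named below. Around vessels, laminin α4 and α5 chains are the main endothelial and muscle forms, and the α2 chain is the form of nerve and muscle fibre.

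Levels were compared between cells and not between genes, since capture at the 3′ end differs from gene to gene. A level of 0 still allows up to 3 UMIs of the class, which is 1.22 to 3.83 CPM in muscle-like cells and 6.34 to 24.5 CPM in Schwann-like cells. Passing the test means an adjusted p under 0.05 in edgeR's quasi-likelihood test on summed UMIs with library as a term, adjusted over all genes tested. In that fit 27 of the 39 members could be tested. The other members with enough UMIs to be described, 9 genes, were removed by the filter on low counts, mainly integrins of immune cells.

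The laminin α chains divided the classes. Lama2, the chain of nerve and muscle-fibre laminin, stood at 253, 337 and 341 CPM in fibroblast-like cells and 118, 166 and 139 CPM in Schwann-like cells. It was at 2.73, 3.83 and 11 CPM in muscle-like cells, and lymphatic endothelial-like cells held 0 UMIs in every library. Fibroblast-like and Schwann-like levels did not overlap with those of the other classes compared in any library, unnamed clusters left aside. Both classes passed the test against the mean of the other 5 (adjusted p = 1.09e-12 and adjusted p = 3.26e-08). Muscle-like cells had less Lama2 than fibroblast-like cells (log2 difference -5.85 ± 0.36 (SE), adjusted p = 5.77e-10).

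Lama5, the α chain of mature vascular basement membranes, ran the other way. It reached 305, 221 and 122 CPM in muscle-like, 119, 81.4 and 171 CPM in pericyte-like and 116, 90.5 and 48.2 CPM in blood endothelial-like cells. Fibroblast-like cells held only 2 UMIs of it over the 3 libraries. Muscle-like, pericyte-like and blood endothelial-like cells passed the test as higher (adjusted p = 1.2e-08, adjusted p = 8.65e-05 and adjusted p = 0.000279), and lymphatic endothelial-like cells had less than blood endothelial-like cells (log2 difference 1.66 ± 0.35 (SE), adjusted p = 0.0015, blood minus lymphatic). Lama3, a chain best known from epithelia, was sparse but restricted in the same way: 10, 20.4 and 19.6 CPM in muscle-like and 20.7, 23.8 and 19.7 CPM in blood endothelial-like cells, against 0 UMIs in lymphatic endothelial-like and Schwann-like cells of all 3 libraries and 1 UMI in fibroblast-like cells. Muscle-like and blood endothelial-like cells passed the test (adjusted p = 4.3e-06 and adjusted p = 6.43e-07). The pericyte-like call for Lama3 (adjusted p = 0.00991) rested on 8 UMIs and was lost without the mixed library (adjusted p = 0.177).

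Lama4, the early vascular α chain, was present in every class but the immune-like cells, which held 0 UMIs. Lymphatic endothelial-like cells had 212, 368 and 233 CPM, beside 131, 139 and 219.6 CPM in muscle-like, 141, 146 and 139 CPM in pericyte-like, 106, 149 and 112 CPM in blood endothelial-like, 222, 239 and 89 CPM in fibroblast-like and 159, 186 and 155 CPM in Schwann-like cells. The lymphatic endothelial-like level was the highest of whole classes in PLV replicate 2 and the mixed library, and fibroblast-like cells were slightly above it in PLV replicate 1. The muscle-like level pools kinds of clusters described below. Of these, the Ano1 and Hmcn2 kind was above the lymphatic endothelial-like level in PLV replicate 1 and the mixed library. Levels of the other classes overlapped, and of the 6 classes only the lymphatic endothelial-like cells passed the test (log2 difference from the mean of the others 0.77 ± 0.18 (SE), adjusted p = 0.00227). Without PLV replicate 2 it did not (adjusted p = 0.0995).

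The β chains Lamb1 and Lamb2 went in opposite directions in several classes. Lamb1 and Lamb2 can each complete a laminin trimer with the same α and γ chains. Lamb1 was at 0.455, 1.28 and 6.12 CPM in muscle-like cells, 17 UMIs in all, and at 524, 589 and 343 CPM in Schwann-like and 221, 270.5 and 224 CPM in lymphatic endothelial-like cells. Lamb2 was at 653, 617 and 479 CPM in muscle-like cells, 76.1, 122 and 40.8 CPM in Schwann-like and 103, 103 and 55.5 CPM in lymphatic endothelial-like cells. Muscle-like levels lay above those of Schwann-like and lymphatic endothelial-like cells for Lamb2 and below them for Lamb1 in each of the 3 libraries. Against the mean of the other 5 classes, Lamb1 was lower in muscle-like cells (log2 difference -5.43 ± 0.58 (SE), adjusted p = 5.37e-06) and Lamb2 higher (log2 difference 1.69 ± 0.17 (SE), adjusted p = 7.53e-08). Schwann-like cells gave the reverse for both genes, Lamb1 higher (log2 difference 3.02 ± 0.34 (SE), adjusted p = 1.04e-05) and Lamb2 lower (log2 difference -1.94 ± 0.27 (SE), adjusted p = 7.02e-06), and so did lymphatic endothelial-like cells (log2 difference 1.89 ± 0.32 (SE), adjusted p = 0.000371 for Lamb1 and log2 difference -1.64 ± 0.22 (SE), adjusted p = 3.44e-06 for Lamb2). Fibroblast-like cells carried both, Lamb2 at 374, 443 and 456 CPM and Lamb1 at 145, 219 and 39.3 CPM. Near-empty droplets of the mixed library held 135 CPM of Lamb2 and 20 CPM of Lamb1, so a muscle-like level of Lamb1 of 6.12 CPM there was below the level of free RNA.

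Sequences before annotated transcript starts of these genes, and of Itga8, the integrin described below that was nearly confined to muscle-like cells, are shown because the opposite order of Lamb1 and Lamb2 across classes and the muscle level of Itga8 are results that the text turns on. They are the 250 bases before an annotated transcript start, from RefSeq on build GRCm38.p6, 5′ to 3′ on the gene's strand. Capitals mark each CG dinucleotide.
Lamb1 (chr12:31265043-31265292, plus strand): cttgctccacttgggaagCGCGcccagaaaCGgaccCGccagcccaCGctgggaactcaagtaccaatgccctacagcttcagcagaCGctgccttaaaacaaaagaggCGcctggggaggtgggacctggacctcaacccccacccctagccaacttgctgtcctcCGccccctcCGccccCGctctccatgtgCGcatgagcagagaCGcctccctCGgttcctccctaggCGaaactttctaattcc
Lamb2 (chr9:108479612-108479861, plus strand): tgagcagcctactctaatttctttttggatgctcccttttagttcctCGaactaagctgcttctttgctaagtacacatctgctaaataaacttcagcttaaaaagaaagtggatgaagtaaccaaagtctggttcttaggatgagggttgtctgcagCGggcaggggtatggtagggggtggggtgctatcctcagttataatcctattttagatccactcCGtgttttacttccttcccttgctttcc
Itga8 (chr2:12301945-12302194, minus strand): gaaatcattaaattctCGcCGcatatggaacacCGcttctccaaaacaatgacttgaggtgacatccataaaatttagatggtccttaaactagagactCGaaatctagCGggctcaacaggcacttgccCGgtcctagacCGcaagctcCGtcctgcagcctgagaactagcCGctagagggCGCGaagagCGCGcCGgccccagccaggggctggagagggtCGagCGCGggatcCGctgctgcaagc
Lamb1 has 14 CG in this window, Lamb2 has 3 and Itga8 has 18. Among the 32851 RefSeq promoters of the same length, the median is 6, 29.4% have at least 14, 71% at least 3 and 21.7% at least 18. The CArG box, bound by serum response factor in smooth muscle genes and searched here as CC, 6 letters A or T, then GG (a palindromic pattern, so both strands are covered), was absent from these 3 windows. It was in 1.47% of all promoters and in 2 of the 27 member promoters, which belong to 24 members: those of Lama2 and, at 1 of its 2 start sites, Itgb6. A match or its lack describes these letters only. The genes lie at chr12:31265234-31329644 (Lamb1), chr9:108479736-108490530 (Lamb2) and chr2:12106632-12301922 (Itga8) in the GENCODE annotation of the same build. RefSeq and GENCODE place the starts differently: the last 59 bases of the Lamb1 window and the last 126 of the Lamb2 window lie inside the GENCODE gene, and the Itga8 window lies outside it.

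Of the γ chains, Lamc1, which most laminins share, had 79.7 CPM or more in each library of the 6 classes tested. Immune-like cells held 18 UMIs (22.7, 13 and 5.61 CPM), below the 66 CPM of near-empty droplets of the mixed library. Fibroblast-like cells had 507, 449.8 and 199 CPM, muscle-like cells 240.2, 246 and 190.2 CPM and lymphatic endothelial-like cells 117, 146 and 79.7 CPM. The fibroblast-like excess (log2 difference 1.34 ± 0.15 (SE), adjusted p = 2.32e-07) and the lymphatic endothelial-like deficit (log2 difference -1.01 ± 0.18 (SE), adjusted p = 0.000106) passed the test. Lamc3 (100 UMIs) and Lamb3 (51) were too sparse for the fit across classes. Of the Lamc3 UMIs, 69 lay in muscle-like cells. Lamb3, a chain of epithelial laminin, had 29 UMIs in fibroblast-like cells (10.3, 6.65 and 3.31 CPM), 12 in immune-like cells (9.75, 21.6 and 5.61 CPM) and 9 in an unnamed cluster of 102 cells of PLV replicate 1 led by keratin genes.

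**Figure D1:**
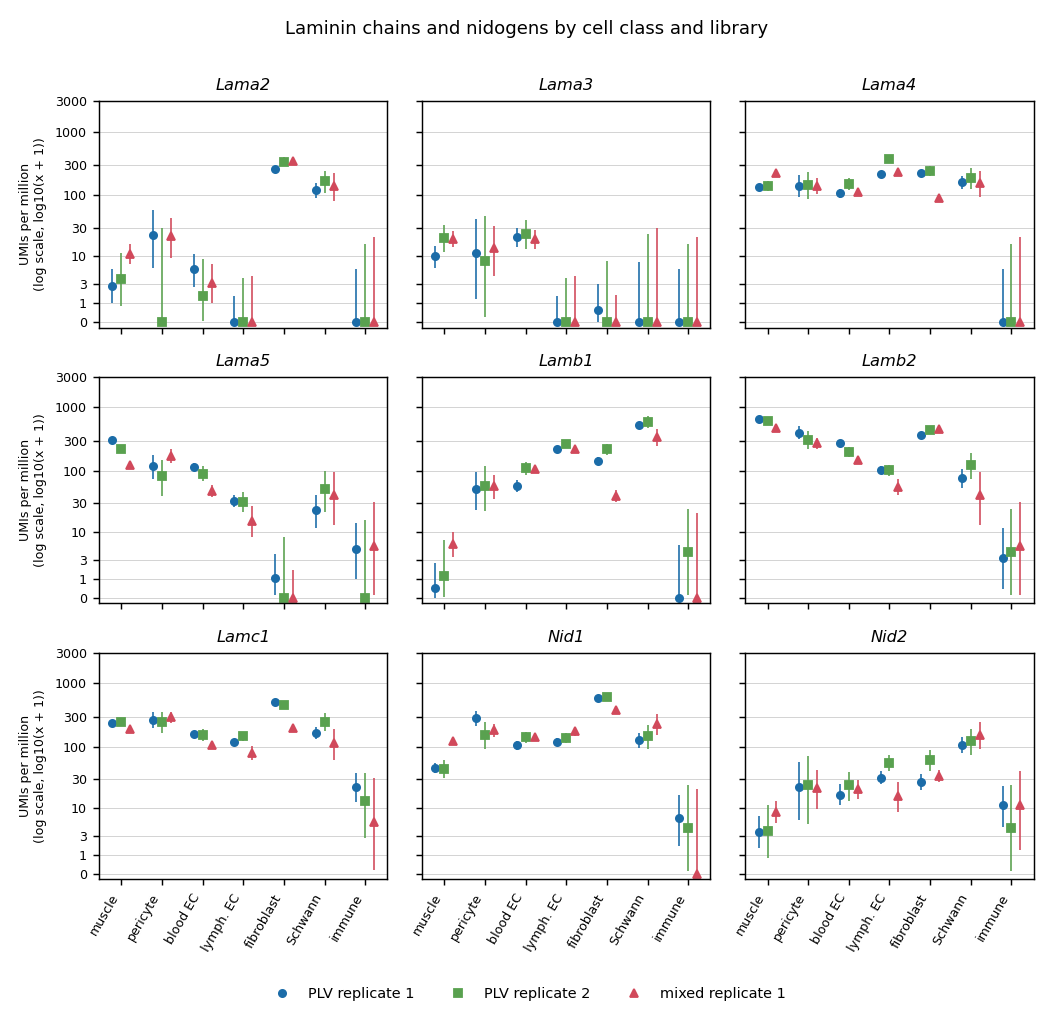
Level in CPM (log10 of the value plus 1) of 9 laminin and nidogen genes in 7 cell classes; each point is 1 library, and vertical lines are exact 95% Poisson intervals, which cover counting error only. Lamb1 lies at 0.455 to 6.12 CPM in muscle-like cells and at 343 to 589 CPM in Schwann-like cells, while Lamb2 has the opposite order.

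Both nidogens were lower in muscle-like cells than in the mean of the other 5 classes. Nid1, the ubiquitous nidogen, stood at 593, 614 and 373 CPM in fibroblast-like and 282, 155 and 182 CPM in pericyte-like cells, but at 45.9, 44.7 and 122 CPM in muscle-like cells. Of the 6 classes tested, the fibroblast-like level was the highest in all 3 libraries (log2 difference 2.28 ± 0.19 (SE), adjusted p = 1.55e-08), and the muscle-like level was the lowest in all 3 (log2 difference -1.50 ± 0.25 (SE), adjusted p = 8.79e-05). Nid2 was highest in Schwann-like cells at 108, 122 and 155 CPM (log2 difference 2.48 ± 0.28 (SE), adjusted p = 2.47e-07) and lowest in muscle-like cells at 3.64, 3.83 and 8.57 CPM (log2 difference -2.61 ± 0.33 (SE), adjusted p = 1.11e-06). Muscle-like cells thus had both nidogen RNAs at lower levels than fibroblast-like cells, by -3.15 ± 0.30 (SE) for Nid1 and -2.87 ± 0.36 (SE) for Nid2 on the log2 scale (adjusted p = 8.63e-08 and adjusted p = 1.26e-06).

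The α subunits of laminin-binding integrins differed between the classes. Itga7, the laminin receptor of muscle, was at 271, 234 and 83.7 CPM in muscle-like and 294, 285 and 177 CPM in pericyte-like cells, at 116, 57.6 and 57.1 CPM in Schwann-like cells, and at 4.38, 1.07 and 0 CPM in lymphatic endothelial-like cells. Muscle-like and pericyte-like cells passed the test against the others (log2 difference 3.19 ± 0.24 (SE), adjusted p = 3.46e-09 and log2 difference 3.55 ± 0.29 (SE), adjusted p = 4.27e-08), and lymphatic endothelial-like and fibroblast-like cells were lower (log2 difference -4.38 ± 0.49 (SE), adjusted p = 6.07e-07 and log2 difference -4.03 ± 0.49 (SE), adjusted p = 2.32e-06). The Schwann-like cells passed as higher too (adjusted p = 0.00263), though not without PLV replicate 1 (adjusted p = 0.0825). Itga3, a laminin receptor of epithelia and endothelium, was at 77.4, 80.2 and 47.1 CPM in lymphatic endothelial-like, 38.2, 30.2 and 34.3 CPM in blood endothelial-like and 41.8, 46 and 15.9 CPM in muscle-like cells. In pericyte-like and fibroblast-like cells only 2 UMIs and 1 UMI were counted. All 3 of the higher classes passed the test (adjusted p = 4.33e-09, adjusted p = 6.56e-06 and adjusted p = 1.65e-05).

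Itga6 and Itgb4, which pair as the receptor that anchors epithelia and Schwann cells to laminin, were nerve and endothelial genes here. Itga6 was at 903, 685 and 489 CPM in Schwann-like, 400.5, 386 and 248 CPM in blood endothelial-like and 216, 281 and 244 CPM in lymphatic endothelial-like cells, and at 5, 5.11 and 8.98 CPM in muscle-like cells. Itgb4 was at 340.3, 409.8 and 237 CPM in Schwann-like, 93.3, 106 and 139 CPM in blood endothelial-like and 225, 231 and 193 CPM in lymphatic endothelial-like cells, with 4 UMIs in muscle-like and 0 in pericyte-like cells. Fibroblast-like cells of PLV replicate 2 stood apart, with 179 CPM of Itga6 and 168 CPM of Itgb4 against at most 6.15 and 2.72 CPM in the other 2 libraries. The 5 perineurial markers summed to 29.4, 284 and 9.94 CPM in these fibroblast-like cells, and the 15 perineurial-like cells of PLV replicate 1 held 1161 CPM of Itga6 and 2008 CPM of Itgb4. With finer clusters (Leiden resolution 2), the fibroblast-like levels in PLV replicate 2 were 9.51 CPM for Itga6 and 0 for Itgb4. Several calls were lost in fits where this library was 1 of only 2. Whether its fibroblast-like cells had a part in these losses was not tested. Schwann-like cells passed the test for both (Itga6 adjusted p = 0.000946, Itgb4 adjusted p = 0.011), and so did lymphatic endothelial-like cells (Itga6 adjusted p = 0.0296, Itgb4 adjusted p = 0.0136). Without PLV replicate 1 the adjusted p for lymphatic endothelial-like cells was 0.0987 for Itga6 and 0.165 for Itgb4, and without the mixed library 0.233 and 0.101. In Schwann-like cells the Itgb4 call was also lost in these 2 fits (adjusted p = 0.19 and 0.0734). The call for Itga6 in blood endothelial-like cells (adjusted p = 0.00698) had adjusted p = 0.0682 without PLV replicate 1 and 0.0857 without the mixed library.

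The collagen-binding α subunits also split by class. Itga1, a receptor for collagen IV, had 688, 889 and 724 CPM in muscle-like, 717, 529 and 378 CPM in pericyte-like and 402, 469.9 and 228 CPM in blood endothelial-like cells, and 66.9, 29.9 and 16.9 CPM in lymphatic endothelial-like and 10.3, 70.9 and 16.6 CPM in fibroblast-like cells. Muscle-like cells exceeded the mean of the others (log2 difference 2.76 ± 0.34 (SE), adjusted p = 3.61e-05) and fibroblast-like cells fell below it (log2 difference -2.91 ± 0.53 (SE), adjusted p = 0.000965). Blood endothelial-like cells had more than lymphatic endothelial-like cells (log2 difference 3.17 ± 0.55 (SE), adjusted p = 0.000996). Itga11, a receptor for fibrillar collagen on fibroblasts, was at 114, 75.3 and 7.57 CPM in fibroblast-like cells, which held 260 of its 292 UMIs, and the class passed the test (adjusted p = 0.000404). The mixed library was far below both PLV libraries in fibroblast-like cells. Pericyte-like cells held 11 UMIs of Itga11, at 0 to 39.5 CPM. Itga10, first known as a cartilage collagen receptor, was low but higher in muscle-like cells than in the mean of the others (adjusted p = 7.59e-07). It stood at 45.9, 54.9 and 19.6 CPM there, with 192 of its 255 UMIs. Pericyte-like cells held 13 UMIs, at 16.9 to 24.4 CPM, and Itga10 did not pass between muscle-like and pericyte-like cells. Itga2 was sparse (169 UMIs), with 42.5, 8.86 and 4.73 CPM in fibroblast-like and 19, 12.8 and 73.4 CPM in Schwann-like cells. Itga2 passed the test as higher in fibroblast-like cells (adjusted p = 0.00064) and in Schwann-like cells (adjusted p = 0.00395), the latter not without PLV replicate 2 (adjusted p = 0.0639). Its fibroblast-like level in the mixed library lay below the blood endothelial-like levels of all libraries, 5.83 to 7.62 CPM (25 UMIs).

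Itga8 had the sharpest muscle pattern of the members tested. This subunit pairs with β1 to bind nephronectin and other ligands with the Arg-Gly-Asp motif, and is known from contractile mesenchymal cells. It stood at 416, 475 and 414 CPM in muscle-like cells, and at 5.65, 40.7 and 38.1 CPM in pericyte-like, 9.72, 4.76 and 1.27 CPM in blood endothelial-like, 16.6, 1.07 and 0 CPM in lymphatic endothelial-like and 4.9, 15.5 and 3.31 CPM in fibroblast-like cells. Schwann-like cells held 0 UMIs of it. Muscle-like cells had 2302 of the 2468 UMIs, and in each library their level was more than 10 times that of any other class compared (adjusted p = 2.63e-06). Unnamed clusters were not among these classes. In near-empty droplets of the mixed library Itga8 was at 47 CPM, and its pericyte-like level there was 38.1 CPM.

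Among the other receptors for Arg-Gly-Asp ligands, Itgb8, which with αv releases active TGF-β, belonged to Schwann-like cells. It had 459, 506 and 367 CPM there and at most 7.66 CPM in any other class compared, in any library, with 0 UMIs in blood endothelial-like and immune-like cells (adjusted p = 4.21e-12). Perineurial-like and unnamed clusters were not among these classes. Among the 6 classes tested, Itgav, the α partner of β3, β5 and β8, was also highest in Schwann-like cells at 214, 288 and 130.5 CPM (log2 difference 2.28 ± 0.20 (SE), adjusted p = 7.47e-09) and lowest in blood endothelial-like cells at 10.4, 7.94 and 9.52 CPM (log2 difference -2.84 ± 0.26 (SE), adjusted p = 9.74e-09). Itgb5 was high in fibroblast-like cells (175, 90.9 and 63 CPM), Schwann-like cells (171, 96 and 48.9 CPM), pericyte-like cells (119, 81.4 and 84.4 CPM) and muscle-like cells (113, 103 and 54.7 CPM). It was nearly absent from lymphatic endothelial-like cells, with 8 UMIs (adjusted p = 1.88e-11, lower). Itgb3, the vitronectin receptor's β subunit, was at 50.3, 62 and 45.9 CPM in lymphatic endothelial-like and 57.7, 66.5 and 16.6 CPM in fibroblast-like cells, and both passed the test (adjusted p = 3.34e-06 and adjusted p = 7.99e-06). Itga5, the fibronectin receptor subunit, was at 88.8, 57.1 and 70.5 CPM in blood endothelial-like, 66.9, 85.5 and 49.5 CPM in lymphatic endothelial-like and 66.9, 53.2 and 13.7 CPM in fibroblast-like cells, with 1 UMI in Schwann-like cells. Both endothelial classes passed the test (adjusted p = 0.00284 and adjusted p = 0.00676), and neither did without PLV replicate 1 (adjusted p = 0.08 and 0.0792).

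Itga9 and Itga4 are related subunits that bind tenascin, VCAM-1 and other ligands. Itga9, needed for lymphatic valves, was highest in lymphatic endothelial-like cells at 169, 196 and 205 CPM, above each other class compared in every library (adjusted p = 9.64e-12), with 1 UMI in Schwann-like cells. The weaker calls for Itga9 in muscle-like (adjusted p = 0.0352) and blood endothelial-like cells (adjusted p = 0.0251) were lost without PLV replicate 1 (adjusted p = 0.141 and 0.339) and without the mixed library (adjusted p = 0.409 and 0.0896). Itga4 was at 336, 285 and 202 CPM in immune-like cells, 32.8, 30.6 and 67.3 CPM in muscle-like and 27.5, 70.4 and 48.9 CPM in Schwann-like cells, with 2 UMIs in lymphatic endothelial-like and 3 in fibroblast-like cells. Muscle-like cells passed the test among the 6 classes (adjusted p = 0.000141), and Schwann-like cells did (adjusted p = 0.00525), though not without PLV replicate 2 (adjusted p = 0.0995). The shared β subunit Itgb1 was graded over the 6 classes tested, beside 303 CPM in near-empty droplets of the mixed library: 1005, 1117 and 1746 CPM in muscle-like, 808, 928 and 1434 CPM in pericyte-like, 448, 497 and 568 CPM in lymphatic endothelial-like and 368, 366 and 355 CPM in fibroblast-like cells. Muscle-like cells had the highest level in each library (log2 difference 1.18 ± 0.11 (SE), adjusted p = 2.28e-08), and fibroblast-like cells the lowest of the 6 classes in each (log2 difference -0.70 ± 0.13 (SE), adjusted p = 0.000179).

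**Figure D2:**
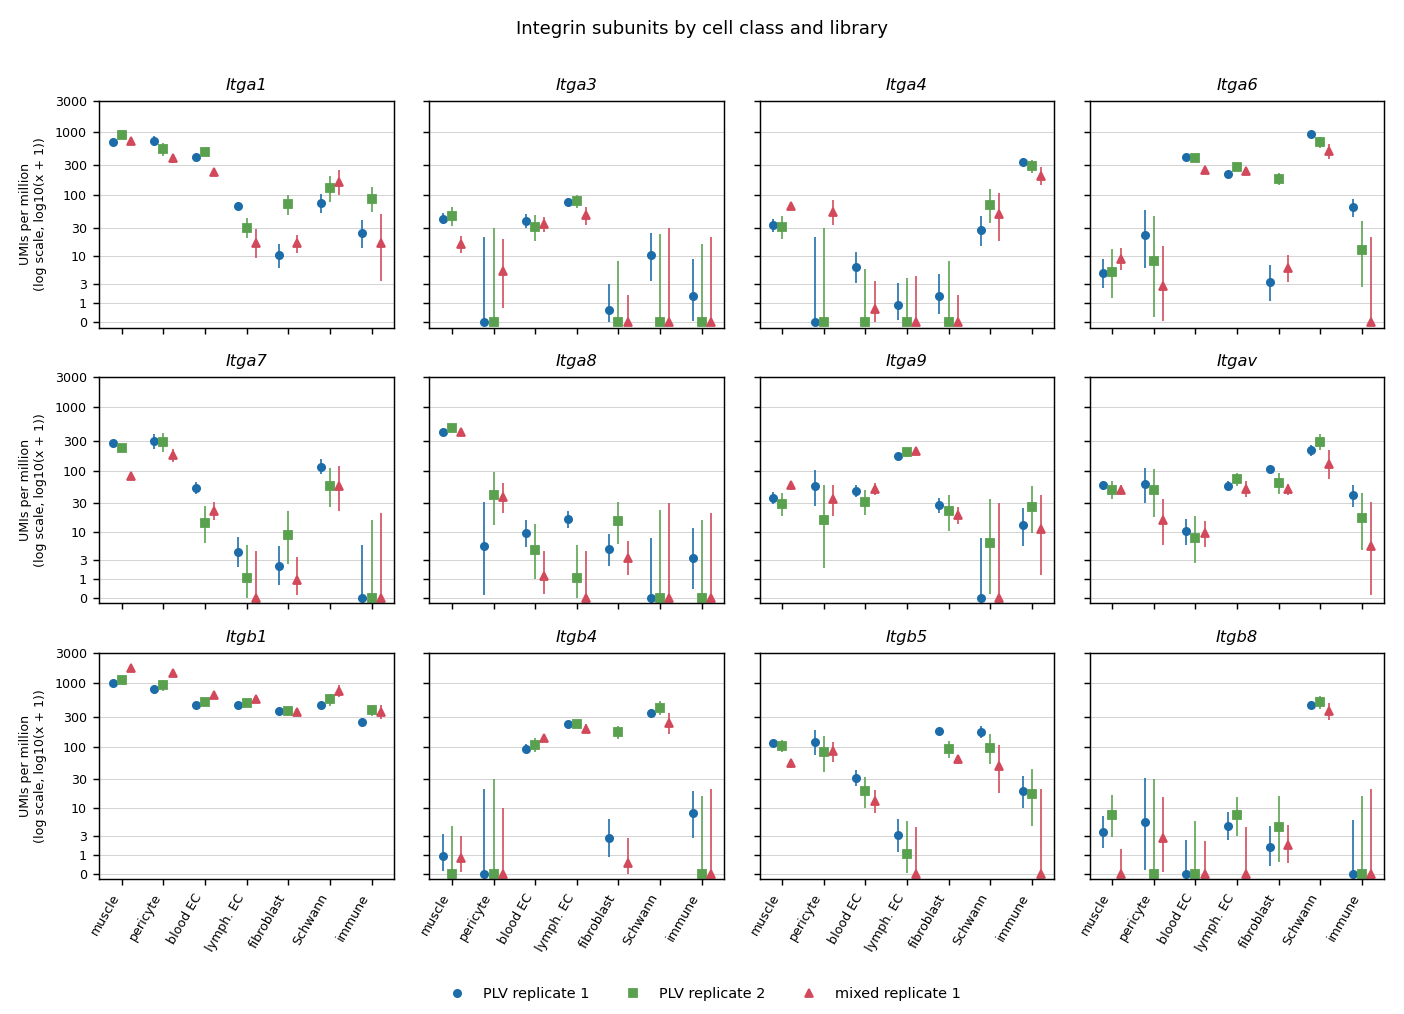
Level in CPM (log10 of the value plus 1) of 12 integrin subunits in 7 cell classes; points are libraries and lines exact 95% Poisson intervals. Among the 7 classes shown, Itga8 is at 414 to 475 CPM in muscle-like cells and at most 40.7 CPM in the others. Itgb8 is high only in the Schwann-like cells of these classes (367 to 506 CPM). The fibroblast-like cells of PLV replicate 2 stand apart for Itga6 and Itgb4.

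Integrins of leukocytes stayed with the immune-like cells, for which values were taken without a test. These cells are not the same types in each library: the class pooled macrophage-like, T or NK-like, B-like and mast-like clusters in PLV replicate 1, 1 dendritic-like cluster with mast cell genes among its leading genes in PLV replicate 2, and 1 macrophage-like cluster in the mixed library. Its 3 values are therefore no replicates of 1 cell type. Itgb2, the β subunit shared by leukocyte integrins, was at 201, 233 and 123 CPM in immune-like cells, with 1 UMI in all 6 other classes together. Itgam was at 162, 155 and 275 CPM, Itgal at 129.9, 60.5 and 44.9 CPM and Itgb7 at 240.4, 238 and 185 CPM in these cells. Itgax (15 UMIs) and Itgae (16 UMIs) were rare. Within PLV replicate 1, Itgam was counted in the macrophage-like cluster at 304 CPM (95% interval 247 to 369.8) and with 0 UMIs in the T or NK-like and B-like clusters. Itgal was at 202 CPM in T or NK-like, 125 CPM in B-like and 112 CPM in macrophage-like cells, and Itgae, the partner of β7 on resident T cells, had 10 of its 16 UMIs in the T or NK-like cluster. Itga2b and Itgb3 form the platelet fibrinogen receptor. In an unnamed cluster of 9 cells of PLV replicate 1 whose leading genes were the platelet genes Pf4 and Ppbp, Itga2b was at 4187 CPM and Itgb3 at 1628 CPM. Itga2b was at 25.3, 3.17 and 21.6 CPM in blood endothelial-like cells, where the 5 platelet markers summed to 81.7, 14.3 and 11.4 CPM, and their part in that level was not tested. It was at 21.2, 22.2 and 10.4 CPM in fibroblast-like cells. The calls for it as higher in these 2 classes (adjusted p = 0.038 and adjusted p = 0.0239) were lost without PLV replicate 1 (adjusted p = 0.442 and 0.18). The blood endothelial-like call was also lost without the mixed library (adjusted p = 0.134), and the fibroblast-like call without PLV replicate 2 (adjusted p = 0.0852). Near-empty droplets of the mixed library held 19 CPM of Itga2b.

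Counted over the 27 members tested, 12 were higher in muscle-like cells than in the mean of the other 5 classes, where 19.5% of all 10490 genes tested were. The counts higher were 12 in fibroblast-like cells (22.3% of all genes), 11 in Schwann-like (15.9%), 8 in blood endothelial-like (19.3%), 8 in lymphatic endothelial-like (19.8%) and 6 in pericyte-like cells (9.39%). The counts lower were 10 in lymphatic endothelial-like cells (12.7% of all genes), 6 in muscle-like (13.1%), 5 in fibroblast-like (12.2%), 4 in Schwann-like (16.7%), 4 in blood endothelial-like (9.35%) and 1 in pericyte-like cells (4.79%). The median member differed from the mean of the others, on the log2 scale and beside the median of all genes, by 0.59 beside -0.01 in muscle-like cells, 0.83 beside 0.03 in fibroblast-like, 0.27 beside -0.03 in pericyte-like, -0.11 beside 0.06 in blood endothelial-like, -0.19 beside -0.14 in Schwann-like and -0.29 beside 0.02 in lymphatic endothelial-like cells. With classes at 0 UMIs set to the floor of 3 UMIs over the libraries, the member medians were 0.25, 0.36, 0.25, -0.11, -0.19 and -0.45 in the same order. These 6 comparisons use the same sums, so their counts are not independent. Without PLV replicate 1 the blood endothelial-like count was 4 and the lymphatic endothelial-like count 5, and without the mixed library the blood endothelial-like count was 4.

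Set directly against fibroblast-like cells, muscle-like cells had 9 members higher (17.3% of all genes) and 10 lower (21.4% of all genes). The higher members were integrins and laminin α chains: Itga8 (log2 difference 6.06 ± 0.76 (SE), adjusted p = 0.000109), Itga7 (log2 difference 6.02 ± 0.47 (SE), adjusted p = 7.55e-09), Itga1 (log2 difference 4.72 ± 0.60 (SE), adjusted p = 4.61e-05), Itga10 (log2 difference 3.70 ± 0.57 (SE), adjusted p = 2.23e-05) and Itgb1 (log2 difference 1.56 ± 0.16 (SE), adjusted p = 6.6e-08) with Itga3, Itga4, Lama3 and Lama5. The lower members included 5 of the 9 laminin and nidogen genes tested: Lama2, Lamb1 (log2 difference -5.35 ± 0.63 (SE), adjusted p = 1.16e-05), Lamc1 (log2 difference -0.91 ± 0.21 (SE), adjusted p = 0.00116), Nid1 and Nid2, with Itga2, Itga2b, Itga11, Itgav and Itgb3 (log2 difference -2.29 ± 0.36 (SE), adjusted p = 2.33e-05). Itgav was lost without PLV replicate 1 or 2 (adjusted p = 0.272 and 0.107), Itga11 without PLV replicate 2 (adjusted p = 0.0763) and Itga2b without PLV replicate 1 (adjusted p = 0.061). Lamb2 (0.16 ± 0.24 (SE) on the log2 scale) and Lama4 (-0.28 ± 0.25 (SE)) did not pass.

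Between muscle-like and pericyte-like cells 5 members passed the test. Of the 27, 3 were higher in muscle-like cells (6.21% of all genes) and 2 lower (5.33%). Itga8 differed most among those with at least 10 UMIs in both classes (log2 difference 3.99 ± 0.76 (SE), adjusted p = 0.00755), and Lamb2 was higher as well (log2 difference 1.01 ± 0.26 (SE), adjusted p = 0.0113). Lamb1 (log2 difference -3.91 ± 0.80 (SE), adjusted p = 0.00577) and Nid1 (log2 difference -1.38 ± 0.32 (SE), adjusted p = 0.00708) were higher in pericyte-like cells. Itga3, with 2 UMIs in pericyte-like cells, also passed (adjusted p = 0.00375). Pericyte-like cells numbered 38, 28 and 57, and these calls were fragile: without PLV replicate 2 none of the 5 passed (adjusted p = 0.0795 for Itga8, 0.125 for Lamb2, 0.0909 for Lamb1, 0.107 for Nid1 and 0.0556 for Itga3), 2 members passed without PLV replicate 1, and 9 without the mixed library. No member passed with a limit of 10% mitochondrial UMIs or at Leiden resolution 0.5. Differences for Itga7 (-0.30 ± 0.31 (SE)), Itga1 (0.72 ± 0.50 (SE)), Lama5 (0.70 ± 0.34 (SE)) and Lama4 (0.40 ± 0.28 (SE)) did not pass, which does not show that these levels are alike.

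The endothelia of blood and lymphatic vessels differed in members as well. Of the 27, 8 were higher in blood endothelial-like (11.5% of all genes) and 7 in lymphatic endothelial-like cells (9.18%). Blood endothelial-like cells had more Lama3, Lama5, Lamb2 (log2 difference 1.28 ± 0.25 (SE), adjusted p = 0.000591), Itga1, Itga7 (log2 difference 3.77 ± 0.53 (SE), adjusted p = 2.03e-05) and Itgb5 (adjusted p = 8.72e-07), and lymphatic endothelial-like cells more Itga9 (log2 difference -2.07 ± 0.23 (SE), adjusted p = 5.18e-07), Itgav (log2 difference -2.59 ± 0.29 (SE), adjusted p = 5.27e-07) and Itgb3 (log2 difference -1.89 ± 0.36 (SE), adjusted p = 0.000341). Those 9 calls held without each library in turn. The remaining 6 did not: Lama2 failed without PLV replicate 1 (adjusted p = 0.12), Lama4 and Itga2 without PLV replicate 2 (adjusted p = 0.0538 and 0.293), and Lamb1, Itga3 and Itgb8 without either PLV library (adjusted p = 0.204, 0.216 and 0.245 without PLV replicate 1, and 0.244, 0.276 and 0.131 without PLV replicate 2). All 9 pericyte markers were detected in blood endothelial-like cells of each library and 3 to 6 of them in lymphatic endothelial-like cells, with sums of 1907, 849 and 1100.0 against 71.3, 10.7 and 7.24 CPM. The muscle markers summed to 1597, 933 and 1275 against 1331, 199.9 and 174 CPM. Lama3, Lama5, Lamb2, Itga1, Itga7 and Itgb5 were also found in pericyte-like or muscle-like cells, and the part of these markers in the differences was not tested. The 8 lymphatic markers summed to 3656, 4582 and 3802 CPM in lymphatic endothelial-like and 42.1, 61.9 and 54 CPM in blood endothelial-like cells.

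Muscle-like clusters of 2 kinds were found in all 3 libraries, and most members tested differed between them. One kind is called here by Ano1, a chloride channel of pacemaking muscle, and Hmcn2 (140, 57 and 192 cells), the other by Pln, the inhibitor of the calcium pump, and Sorbs2 (285, 53 and 43 cells). Clusters were assigned to a kind by the mean of 4 genes chosen after clustering. Hmcn2, Pln and Sorbs2 were among the leading genes of their kind in all 3 libraries, and Ano1 in PLV replicate 1 only. The members and the pathway lists had been left out of the genes used for clustering. Of 17 members tested, 8 were higher in the Ano1 and Hmcn2 kind (15.8% of 7058 genes) and 5 lower (16.8%). With DESeq2 the count of members passing was 9 instead of 13. The laminin α chains Lama4 and Lama5 differed in opposite directions. Lama4 stood at 293, 298 and 276 CPM in the Ano1 and Hmcn2 kind and 52.7, 28.2 and 38.4 CPM in the Pln and Sorbs2 kind (log2 difference 2.61 ± 0.20 (SE), adjusted p = 5.2e-17). In the same order of kinds, Lama5 stood at 154, 130.3 and 104 against 378, 284 and 202 CPM (log2 difference -1.30 ± 0.16 (SE), adjusted p = 1.79e-09). The levels of the 2 kinds did not overlap for either gene. Lama3 was at 30.6, 49.6 and 27.4 CPM in the Ano1 and Hmcn2 kind (adjusted p = 1.02e-09), with 0 UMIs in the Pln and Sorbs2 kind, which allows up to 2.03, 6.51 and 9.61 CPM. The β chain Lamb2 (726, 655 and 566 against 618, 590.1 and 455 CPM) and the γ chain Lamc1 (247, 245 and 192 against 237, 247 and 218 CPM) did not pass the test.

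Integrin α subunits differed between these kinds as well. The collagen-binding subunits Itga1 and Itga10 were higher in the Ano1 and Hmcn2 kind, Itga1 at 1411, 1554 and 844 against 337, 423 and 317 CPM (log2 difference 1.65 ± 0.15 (SE), adjusted p = 2.95e-14) and Itga10 at 97.3, 90 and 28.2 against 21, 30.4 and 9.61 CPM (log2 difference 1.79 ± 0.28 (SE), adjusted p = 4.85e-07). The laminin-binding subunits Itga7 and Itga3 were lower in the Ano1 and Hmcn2 kind than in the Pln and Sorbs2 kind. Itga7 was at 175, 168 and 95.3 against 318, 279.9 and 128 CPM (log2 difference -0.86 ± 0.17 (SE), adjusted p = 2.24e-05). Itga3 was at 23.6, 21.7 and 9.15 against 50.7, 62.9 and 25.6 CPM (log2 difference -1.45 ± 0.32 (SE), adjusted p = 0.000176). Itgb5 was lower as well (log2 difference -0.98 ± 0.21 (SE), adjusted p = 0.0001). Itga8 was at 549, 686 and 441 against 352, 328 and 301 CPM, higher in the Ano1 and Hmcn2 kind (log2 difference 0.59 ± 0.15 (SE), adjusted p = 0.000848). Each of these directions held within all 3 libraries; over the libraries, levels of Itga10, Itga7 and Itgb5 in the 2 kinds overlapped. Itga9 (65.3, 46.5 and 61 against 23.7, 17.4 and 32 CPM), Itga5 (41.7, 24.8 and 19.8 against 16.9, 8.68 and 9.61 CPM) and Nid1 (72.3, 90 and 107 against 33.1, 13 and 89.7 CPM) were also called higher and Itga4 (11.1, 12.4 and 21.3 against 43.3, 43.4 and 32 CPM) lower in the Ano1 and Hmcn2 kind. The calls for Itga8 and these 4 genes depended on a PLV library. Without PLV replicate 2 the adjusted p was 0.064 for Itga8, 0.0595 for Itga5 and 0.164 for Nid1. Without PLV replicate 1 it was 0.0775 for Itga4, 0.0875 for Itga9 and 0.167 for Nid1. A further kind, led by P2rx1 and Col12a1, was found in the mixed library alone (74 cells). It held 14.5 CPM of Lama3, 154 CPM of Itga4 and 103 CPM of Itga5, beside 27.4, 21.3 and 19.8 CPM in the Ano1 and Hmcn2 kind of that library, and 349 CPM of Lamb2 beside 566 CPM.

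**Figure D3:**
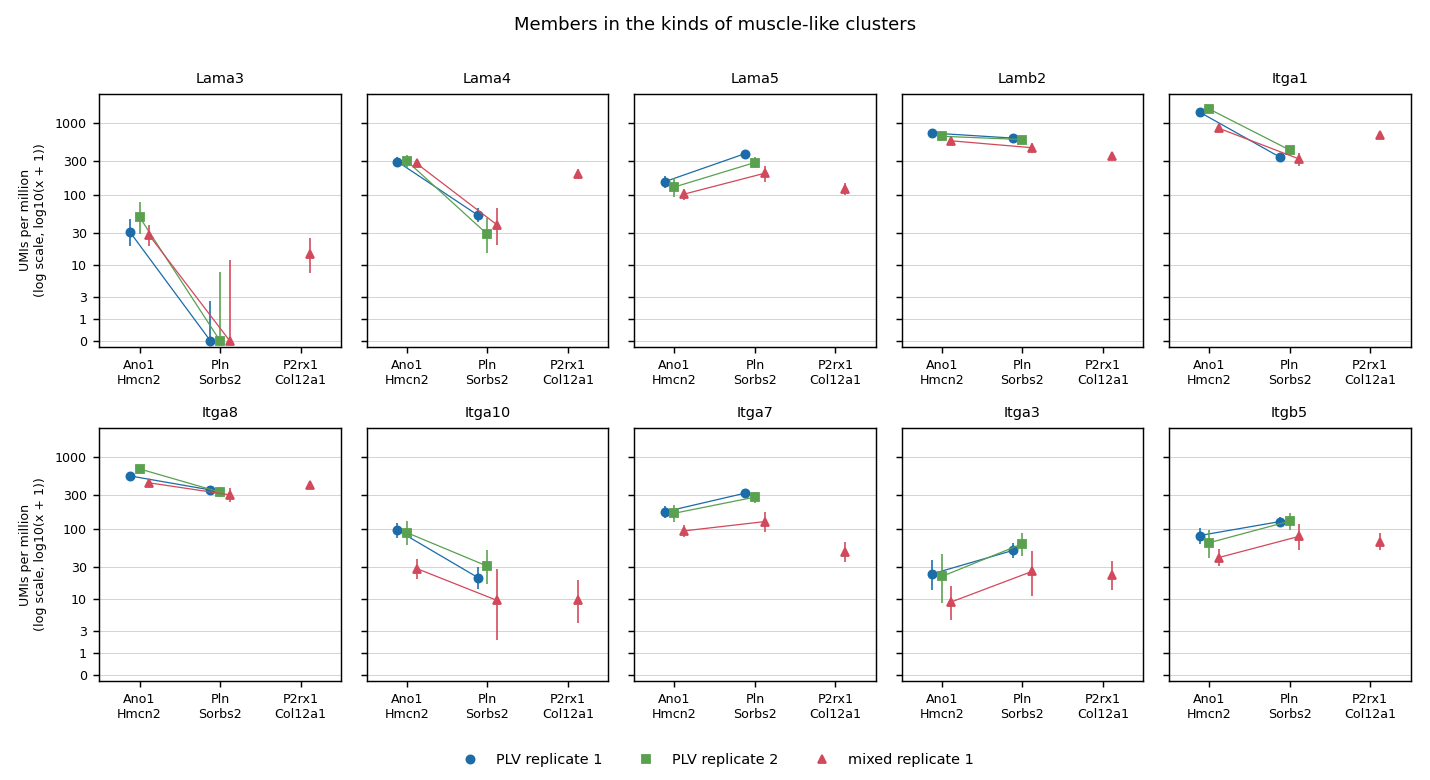
Level in CPM (log10 of the value plus 1) of 10 members in the kinds of muscle-like clusters, named on the x axis by 2 genes; points are libraries, lines join the kinds of 1 library, and vertical lines are exact 95% Poisson intervals. Lama4, Itga1 and Itga10 fall and Lama5, Itga7, Itga3 and Itgb5 rise from the Ano1 and Hmcn2 kind to the Pln and Sorbs2 kind in all 3 libraries, while Lama3 goes to 0.

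The blood endothelial-like cells held a Cd36 and Gpihbp1 kind (121, 49 and 100 cells), whose leading genes are those of capillaries, and a Selp and Lepr kind (99, 12 and 41 cells), with the venular gene Selp. A Cytl1 and Clu kind (76 cells in PLV replicate 1 and 33 in the mixed library) was not compared. In PLV replicate 2 a cluster of 69 cells with Cytl1 as its first leading gene stayed unnamed, having under 3 markers. Levels of the Cytl1 and Clu kind in its 2 libraries lay far apart for Itga1 (469 and 37.3 CPM) and Itgb4 (97 and 398 CPM). The comparison of the first 2 kinds, and that of the Schwann-like kinds, were added after the clusters had been seen. Of 17 members tested, 7 were higher in the Cd36 and Gpihbp1 kind (6.92% of 6360 genes) and 3 lower (8.71%). The basement membrane chains Lamb1 (102, 144 and 159 against 21.5, 0 and 21.5 CPM, log2 difference 2.69 ± 0.33 (SE), adjusted p = 1.64e-05) and Lama4 (175, 188 and 168 against 43.1, 26.5 and 29.4 CPM, log2 difference 2.17 ± 0.24 (SE), adjusted p = 4.3e-06) were higher in it, as was Itga1 (497, 557 and 338 against 205, 192 and 141 CPM, log2 difference 1.16 ± 0.15 (SE), adjusted p = 2.72e-05). Itgb4 and Itga9 were lower in the Cd36 and Gpihbp1 kind than in the Selp and Lepr kind. Itgb4 was at 41, 73 and 43.7 against 170.2, 212 and 170.4 CPM (log2 difference -2.04 ± 0.20 (SE), adjusted p = 1.52e-06). Itga9 was at 15.5, 25 and 20.6 against 77.6, 53.1 and 58.7 CPM (log2 difference -1.87 ± 0.32 (SE), adjusted p = 0.000373). For these 5 genes the levels of the 2 kinds did not overlap. Lama5 (-0.46 ± 0.23 (SE)) and Lamb2 (-0.08 ± 0.17 (SE)) did not pass. Calls for Lamc1, Itga6, Itga3 and Nid2 were lost without PLV replicate 1 (adjusted p = 0.129, 0.139, 0.0719 and 0.124), that for Itga3 also without PLV replicate 2 (adjusted p = 0.0584), that for Lamc1 also without the mixed library (adjusted p = 0.0564), and that for Nid2 without either (adjusted p = 0.101 and 0.0905). With DESeq2 5 of the 10 calls were left. Itga7 (67.8, 18.8 and 41.3 against 21.5, 0 and 3.92 CPM, log2 difference 2.06 ± 0.44 (SE), adjusted p = 0.00268) was among those lost with DESeq2.

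The Schwann-like cells held a myelin kind with Prx and Drp2 among its leading genes (184, 36 and 26 cells) and a kind with Cdh19 and Scn7a among them (50, 17 and 13 cells), genes of non-myelinating Schwann cells. Of 12 members tested, 1 was higher in the Prx and Drp2 kind (21.1% of 1372 genes) and 7 were lower (19.9%). Itga1 was all but confined to the Cdh19 and Scn7a kind, at 471, 511 and 507 CPM against 4.96, 0 and 0 CPM (adjusted p = 2.56e-28). Both nidogens were higher there too, Nid1 at 399, 281 and 456 against 79.4, 103 and 120.2 CPM (log2 difference -1.85 ± 0.35 (SE), adjusted p = 6.92e-07) and Nid2 at 399, 332 and 304 against 57.1, 51.3 and 84.2 CPM (log2 difference -2.40 ± 0.40 (SE), adjusted p = 1.32e-08). For these 3 genes the levels of the 2 kinds did not overlap. Itgb8 (442, 716 and 177 against 462, 436 and 457 CPM) and Itga6 (1041, 792 and 558 against 879, 649 and 457 CPM) did not pass. Itgb4 was higher in the Cdh19 and Scn7a kind (log2 difference -1.05 ± 0.27 (SE), adjusted p = 0.00045), and Lama2 (log2 difference -1.38 ± 0.38 (SE), adjusted p = 0.00109), Lama4 (log2 difference -1.21 ± 0.35 (SE), adjusted p = 0.00189) and Lamc1 (log2 difference -1.06 ± 0.34 (SE), adjusted p = 0.00634) were as well. Lama2 was lost without PLV replicate 2 (adjusted p = 0.0887), Lama4 without PLV replicate 1 (adjusted p = 0.0814), Lamc1 without either PLV library (adjusted p = 0.0515 and 0.141) and Lamb1, the 1 member higher in the Prx and Drp2 kind, without PLV replicate 1 or the mixed library (adjusted p = 0.213 and 0.0896). With DESeq2 3 of the 8 calls were left: Itga1, Nid1 and Nid2.

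**Figure D4:**
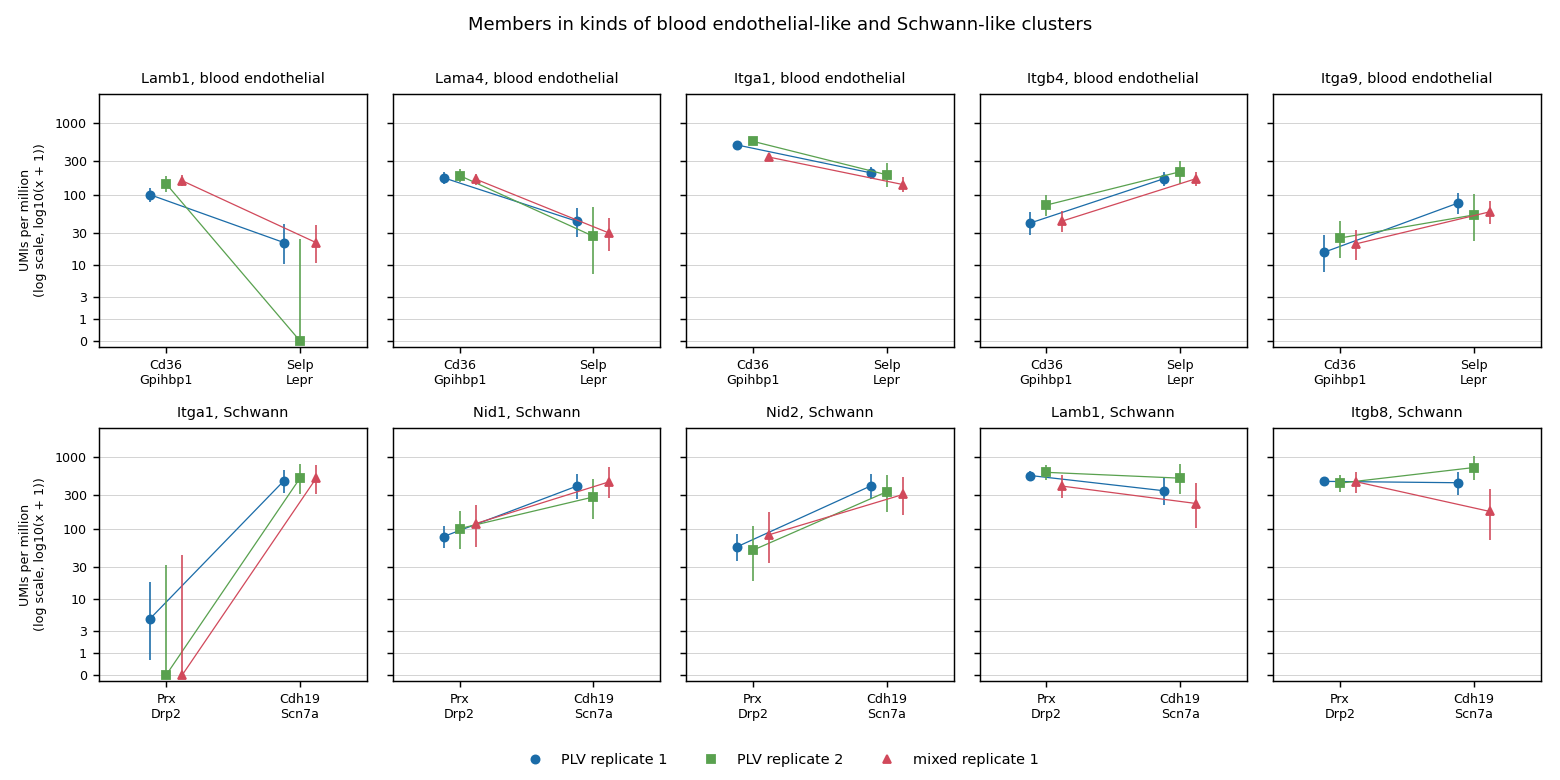
Level in CPM (log10 of the value plus 1) of 5 members in 2 kinds of blood endothelial-like clusters and 5 members in 2 kinds of Schwann-like clusters; points are libraries, joined by lines, with exact 95% Poisson intervals. Itga1 is at 4.96 CPM or less in the Prx and Drp2 kind and at 471 to 511 CPM in the Cdh19 and Scn7a kind, while the levels of Itgb8 overlap.

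In muscle-like cells the mixed library was compared with the 2 PLV libraries, with 1 mixed library assumed to vary as the PLV libraries do. The spread behind these p-values comes from the 2 PLV libraries alone, and no fit without 1 of them could be run, so the calls have no replicate check on the mixed side. Of 25 members tested, 8 were higher in the mixed library (7.9% of 10807 genes) and 5 lower (6.86%). The makeup of the muscle-like cells differed between these libraries, however: the Pln and Sorbs2 kind was 285 of 425 and 53 of 110 cells in the PLV libraries and 43 of 309 in the mixed library, and the P2rx1 and Col12a1 kind was seen in the mixed library alone. Nid1 was higher in the mixed library, at 45.9, 44.7 and 122 CPM (log2 difference 1.65 ± 0.23 (SE), adjusted p = 1.62e-06). Within the Pln and Sorbs2 kind Nid1 differed by 1.96 on the log2 scale (adjusted p = 0.000228), and within the Ano1 and Hmcn2 kind by 0.72 on the log2 scale (adjusted p = 0.132). Itga7 was lower in it (log2 difference -1.37 ± 0.25 (SE), adjusted p = 0.000116), by -0.99 on the log2 scale (adjusted p = 0.0361) within the Pln and Sorbs2 kind and -0.57 on the log2 scale (adjusted p = 0.25) within the other. Both genes thus passed within the Pln and Sorbs2 kind and missed the threshold within the Ano1 and Hmcn2 kind; whether the kinds differ in this was not tested. Of 15 members tested within the Pln and Sorbs2 kind these were the 2 that passed, 1 higher (beside 2.01% of all genes tested there) and 1 lower (0.903%). Within the Ano1 and Hmcn2 kind 3 of 19 members passed, 2 higher (beside 3.79% of all genes) and 1 lower (1.62%): Lamc3 by 2.01 on the log2 scale (adjusted p = 0.00228), Itga10 by -1.46 on the log2 scale (adjusted p = 0.00242) and Itgb1 by 0.88 on the log2 scale (adjusted p = 0.034).

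Of the 13 members, the other 8 did not pass within either kind where they could be tested, and Lama2 could be tested in neither. Itga3, lower in the mixed library over all muscle-like cells (-1.21 ± 0.31 (SE)), differed by -1.03 on the log2 scale (adjusted p = 0.33) within the Ano1 and Hmcn2 kind and -0.85 on the log2 scale (adjusted p = 0.445) within the Pln and Sorbs2 kind. For Itgb5 (-0.76 ± 0.24 (SE) over all) these were -0.62 on the log2 scale (adjusted p = 0.305) and -0.45 on the log2 scale (adjusted p = 0.575). Lama5 (-0.88 ± 0.25 (SE) over all) gave -0.20 on the log2 scale (adjusted p = 0.759) and -0.50 on the log2 scale (adjusted p = 0.395), and Itga9 (1.02 ± 0.26 (SE) over all) 0.35 on the log2 scale (adjusted p = 0.603) and 0.80 on the log2 scale (adjusted p = 0.564). These 4 genes kept their direction in both kinds. For Lama4, higher in the mixed library over all muscle-like cells (log2 difference 0.93 ± 0.23 (SE), adjusted p = 0.00335), the difference was 0.18 on the log2 scale (adjusted p = 0.765) within the Ano1 and Hmcn2 kind and 0.02 on the log2 scale (adjusted p = 0.989) within the Pln and Sorbs2 kind. Itga4 was higher over all muscle-like cells (log2 difference 1.31 ± 0.26 (SE), adjusted p = 0.000293) and Itga5 likewise (log2 difference 1.32 ± 0.29 (SE), adjusted p = 0.00103), the 2 genes with high levels in the P2rx1 and Col12a1 kind, and Itga4 differed by 1.16 on the log2 scale (adjusted p = 0.233) within the Ano1 and Hmcn2 kind and -0.19 on the log2 scale (adjusted p = 0.89) within the Pln and Sorbs2 kind. Itga5 differed by -0.57 on the log2 scale (adjusted p = 0.458) within the Ano1 and Hmcn2 kind. Fibroblast markers summed to 1548, 1378 and 2066 CPM and mast cell markers to 24.1, 43.4 and 149 CPM in muscle-like cells, and near-empty droplets of the mixed library held 83.9 CPM of Nid1. The part of these in the Nid1 difference was not tested. With DESeq2, 3 of the 13 calls were left: Nid1, Itga7 and Itgb1.

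Other genes of cell adhesion were counted from 4 lists. Of 27 genes of the integrin adhesion machinery tested (talins, vinculin, kindlins, parvins and other proteins that couple integrins to actin), muscle-like cells had 16 above the mean of the other classes (beside 19.5% of all genes) and 3 below it (13.1%), with a median log2 difference of 0.97 beside -0.01 for all genes. In Schwann-like cells 4 were higher (15.9% of all genes) and 14 lower (16.7%), with a median of -0.67 beside -0.14. Against fibroblast-like cells, muscle-like cells had 15 of these 27 higher (17.3% of all genes) and 4 lower (21.4%). Among the higher were Actn1, an actinin (4.87 ± 0.36 (SE), adjusted p = 3.87e-09), Flna, filamin A (4.32 ± 0.29 (SE), adjusted p = 6.11e-10), and Vcl, vinculin (2.95 ± 0.20 (SE), adjusted p = 1.14e-10).

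Of 14 other laminin and matrix receptors tested (dystroglycan, sarcoglycans, syndecans and others), 8 were higher in muscle-like than in fibroblast-like cells (17.3% of all genes) and 2 lower (21.4%), with Bcam, a receptor for laminin α5, among the higher (5.70 ± 0.65 (SE), adjusted p = 1.49e-05). Between the muscle kinds, 3 of the 14 were higher in the Ano1 and Hmcn2 kind (15.8% of all genes) and 6 lower (16.8%), with a median of -0.18 beside 0.00, and Sdc1, syndecan-1, was among the higher (3.68 ± 0.19 (SE), adjusted p = 9.3e-24). Of 21 basement membrane partners tested, such as collagen IV chains, perlecan and agrin, 13 were higher in fibroblast-like cells than in the mean of the others (22.3% of all genes) and 4 lower (12.2%; median log2 difference 1.23, or 0.82 with classes at 0 UMIs set to the floor, beside 0.03 for all genes). Between the endothelia, 8 were higher in blood (11.5% of all genes) and 5 in lymphatic endothelial-like cells (9.18%), with a median of 0.77, or 0.32 with the floor, beside 0.04. Col4a1, a collagen IV chain, was higher in blood endothelial-like cells (3.51 ± 0.28 (SE), adjusted p = 1.18e-08). Between the muscle kinds, 4 of 15 partners tested were higher in the Ano1 and Hmcn2 kind (15.8% of all genes) and 10 lower (16.8%), with a median of -0.87 beside 0.00 for all genes. Of 21 integrin ligands outside the basement membrane, 12 were higher in fibroblast-like cells (22.3% of all genes) and 2 lower (12.2%). The median over the whole list was 1.99, or 1.17 with classes at 0 UMIs set to the floor. In the muscle kinds 5 of 13 tested were higher in the Ano1 and Hmcn2 kind (15.8% of all genes) and 4 lower (16.8%), with a median of 0.53 beside 0.00, and Postn, periostin, was among the higher (5.82 ± 0.29 (SE), adjusted p = 1.43e-16). Between the blood endothelial-like kinds, 3 of 15 of these ligands tested were higher in the Cd36 and Gpihbp1 kind (6.92% of all genes) and 4 lower (8.71%), with a median of 0.12 beside -0.01. Among those lower in it, and so higher in the Selp and Lepr kind, were Icam1 (-3.92 ± 0.27 (SE), adjusted p = 5.32e-08) and Vcam1 (-2.98 ± 0.49 (SE), adjusted p = 0.000244), ligands of leukocyte integrins (differences are Cd36 and Gpihbp1 kind minus Selp and Lepr kind).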

How the data were processed

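The deposited files hold UMI counts per gene and barcode, made with Cell Ranger (6.1.2 for the PLV libraries and 4 for the mixed library, per the file headers) on GRCm38, per the submitters' processing notes. Barcodes with at least 500 UMIs, 300 genes, at most 15% mitochondrial and 20% haemoglobin UMIs were kept, and predicted doublets (10, 3 and 3) removed. Each library was clustered with scanpy 1.11.5 (2000 variable genes, 50 components, 15 neighbours, Leiden resolution 1), leaving out members and pathway lists. Clusters were named from at least 3 markers that were 2 times higher than in other cells (20 CPM added) and present in 20% of the cluster's cells; the last rule was set after the clusters were seen. UMIs were summed per library and class and tested with edgeR 4.0.16 (TMM, filterByExpr, library term, Benjamini-Hochberg), checked on simulated data; DESeq2 1.42.0 was an alternative. Members with at least 10 UMIs are described; a log2 difference is printed only with at least 10 UMIs in each class compared. From each pathway list, at most the 3 called genes with the largest difference were eligible to be named. Near-empty droplets are the 185412 barcodes of the mixed library with fewer than 50 UMIs. Members and lists were chosen with earlier results of these data known. PLV libraries came from separate pools. With library as a term, p-values measure how far class or kind differences vary between libraries. In the mixed-PLV comparison they measure the spread between the PLV libraries. One member with enough UMIs to be described is not reported here.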

Additional observations from a re-analysis of the deposited data

Results flagged for a closer look

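Lamb1 in fibroblast-like cells pointed in opposite directions in the 2 groups of libraries. Against the mean of the other 5 classes, on the scale of log2(CPM + 1), it differed by 1.4 and 1.56 in the PLV libraries and by -1 in the mixed library. Its levels there were 145 and 219 CPM in the PLV libraries and 39.3 CPM in the mixed library. The class was made of different clusters: 145 of the 275 fibroblast-like cells of the mixed library formed a cluster with Col4a4 and Itgbl1 among its leading genes, which led no fibroblast-like cluster of the PLV libraries. By cluster, Lamb1 was at 89.4 to 265 CPM in the 6 fibroblast-like clusters of the PLV libraries and at 28.3 to 47.1 CPM in the 3 of the mixed library. The part of this makeup in the difference was not tested. The difference between the groups was not tested, and over all libraries Lamb1 passed as higher in fibroblast-like cells (adjusted p = 0.0443), but not without PLV replicate 1 (adjusted p = 0.327) or PLV replicate 2 (adjusted p = 0.426).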

How the results depend on the processing

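Over 13 comparisons, members passed the test 170 times, and 92 of these calls were kept in every alternative run. Of 157 calls with fits that left out 1 library, 96 were kept in each such fit that tested them, and 29 of the 170 were lost with DESeq2. The muscle-pericyte count was least stable: 5 members passed, against 9 with no filter on low counts, 0 with at most 10% mitochondrial UMIs and 0 at Leiden resolution 0.5. The filter also moved the pericyte-like count from 6 to 10. With DESeq2, the count fell from 13 to 3 between mixed and PLV muscle, from 8 to 3 between Schwann-like kinds and from 10 to 5 between blood endothelial-like kinds. Between muscle kinds it fell from 13 to 9. Within 1 kind of muscle-like cluster, an alternative chosen after seeing the data, the mixed-PLV count was 3 (Ano1 and Hmcn2) and 2 (Pln and Sorbs2). There, Itga4 reversed to -0.19 in the Pln and Sorbs2 kind (1.16 in the Ano1 and Hmcn2 kind) and Itga5 to -0.57 in the Ano1 and Hmcn2 kind (log2). The causes were not tested. Without 1 library, counts ranged as follows: 11 to 12 members higher in muscle-like, 5 to 9 in pericyte-like, 4 to 9 in blood endothelial-like, 5 to 7 in lymphatic endothelial-like, 8 to 14 in fibroblast-like and 8 to 10 in Schwann-like cells, and 0 to 9 differing between muscle-like and pericyte-like cells, 10 to 16 between the endothelia, 15 to 22 between muscle-like and fibroblast-like cells, 9 to 14 between muscle kinds, 5 to 9 between Schwann-like kinds and 5 to 10 between blood endothelial-like kinds. Leaving out a PLV library from the mixed-PLV comparison could not be run, since no residual degrees of freedom remained. Low UMI totals in pericyte-like, Schwann-like and immune-like cells limit the smallest level seen there.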
